A study of Mus musculus with 6 samples.

Results

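The genes described here are 10 of the 20121 genes listed for the hearts of 6 mouse pups, and in hearts made to express a dominant negative thyroid hormone receptor all of them averaged under 10% of their control level. They are Lrtm1, Foxo6os, Foxo6, Rp1, Cngb3, Ush1c, Pnpla3, Hrasls, Pla2g5 and Art1. Of these, 9 were selected on their counts, for some of the largest differences on the low side between mutant and control hearts, and Foxo6 was added as the neighbour of Foxo6os. The contrast between mutant and control hearts therefore chose them, and their values in it are given as a description, with no test. All 10 were listed in every library, and all 10 passed the filter on low counts, which left 14877 genes. Several could pass only through their control counts.

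The mutant group held 3 pups of the genotype Myh6-Cre; TRalphaAMI, and the control group held 3 littermates with TRalphaAMI and no Cre. All pups were 14 days old, on a mixed (ICR; C57BL/6) background, and each library came from the whole heart of 1 pup. TRalphaAMI is a knock-in allele that makes, once Cre recombinase has acted on it, a dominant negative thyroid hormone receptor alpha. Myh6-Cre is active in heart muscle cells, so other cell types of the mutant hearts are not targeted by design. All 6 pups carried the allele. No group carried Myh6-Cre alone, so the effects of Cre and of the receptor cannot be told apart. Fewer cells of a type and less RNA per cell cannot be told apart in whole hearts either.

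Thyroid hormone receptor alpha, encoded by Thra, is the main receptor for thyroid hormone in heart muscle. It sits on DNA next to its target genes together with a retinoid X receptor, binding copies of the half-site AGGTCA or close variants of it. With hormone bound it recruits coactivators, and without hormone it holds corepressors. A dominant negative receptor occupies the DNA but does not release the corepressors in response to hormone. In rodents, blood levels of thyroid hormone climb in the weeks after birth, when the heart matures.

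The libraries held 43314706 to 62095277 counts, so that 1 count stood for 0.0178 to 0.0255 CPM (the count scaled to a common library size, with a correction for library composition). Thra averaged 137 ± 10.4 CPM in mutant hearts and 76.7 ± 8.54 CPM in control hearts (SD, n = 3 each), with a log2 fold change of 0.83 ± 0.09 (SE) and an edgeR adjusted p of 1.01e-04. The tables give 1 row for Thra and do not separate the knock-in allele from the other. Of the 14877 genes tested, 19.5% were lower and 18.1% were higher in mutant hearts at an adjusted p under 0.05 (edgeR's quasi-likelihood test, Benjamini-Hochberg adjustment), and the median log2 fold change was -0.000546. These p-values take in no more than the spread among the 6 hearts. Summed markers of heart muscle lay at 26611 to 28110 CPM in mutant hearts and at 31922 to 36335 CPM in control hearts. Of those 7 markers, 4 were lower and 3 did not pass the threshold.

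The 10 genes shared one pattern: the highest mutant heart stayed far below the lowest control heart. The groups did not overlap in 10 of 10 genes. Among all genes tested, 25.4% had every mutant heart below every control heart, and nothing is read from the genes' own count because the contrast chose them. The pooled level of a group is its summed counts over its summed library sizes, with the correction for composition. In mutant hearts it was 0.573% of that in control hearts for Lrtm1, 0.733% for Foxo6os, 1.33% for Rp1 and 1.42% for Art1. It was 2.11% for Cngb3, 2.30% for Pnpla3, 3.91% for Hrasls, 4.31% for Ush1c, 5.14% for Pla2g5 and 9.20% for Foxo6. The mutant mean was under 0.1 CPM for 2 of the genes, between 0.1 and 1 CPM for 5, and at least 1 CPM for 3.

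**Figure D1:**
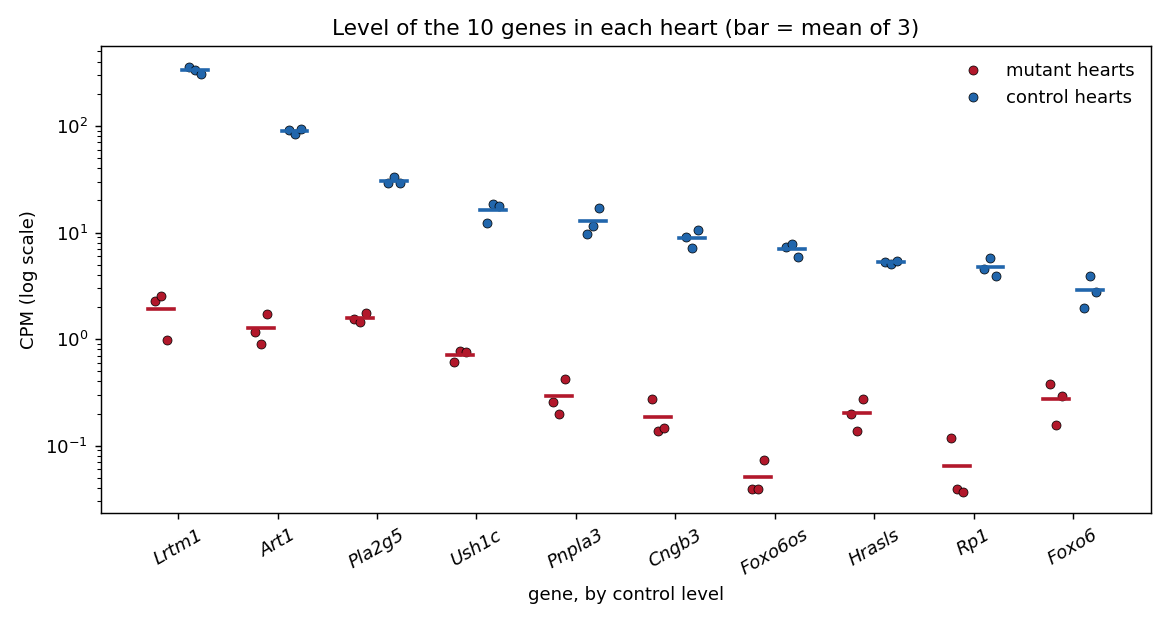
Level of the 10 genes in every heart, in CPM on a log axis, ordered by control level; each point is 1 heart, mutant hearts left of control hearts, and each bar is the mean of 3 hearts. In every gene the 3 mutant points lie below the 3 control points, and the gap is narrowest for Foxo6.

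A difference of this size was rare in the hearts. A fitted log2 fold change equal to at least 2-fold lower in mutant hearts was seen in 3.18% of the genes tested, at least 8-fold lower in 0.316% and at least 16-fold lower in 0.134%. The median fitted log2 fold change of the 10 genes was -5.49. Ranked by the fitted change, 9 of them were among the 16 largest on the low side, and Foxo6 was at rank 29. The others among the 16 included Prss55, 2210407C18Rik, Prss51, Cacna2d3, Scn4a and 1 gene with no name in the annotation. Prss55 had 0 counts in mutant hearts and 147 in control hearts, and Scn4a had 57 in mutant and 1622 in control hearts. These were picked out after their values were seen.

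**Figure D2:**
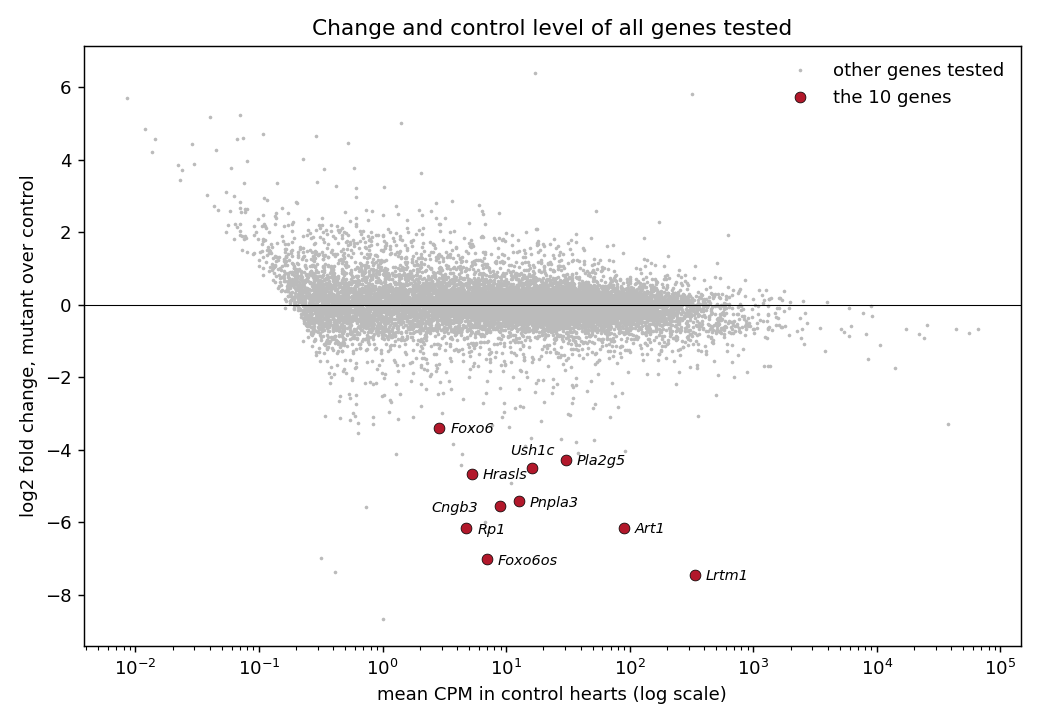
Fitted log2 fold change, mutant over control, against the mean CPM in control hearts on a log axis, for the genes tested; grey points are the other genes and red points the 10 genes. The 1 tested gene without counts in control hearts is left out. The 10 genes lie between -7.44 for Lrtm1 and -3.39 for Foxo6, and they span control levels of 2.88 to 334 CPM.

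The genes differed widely in how active they were in control hearts. Per length, in the authors' deposited RPKM (reads per kilobase of gene, scaled to the library total), Lrtm1 had the highest level with 41.1 ± 3.03 RPKM in control hearts, ahead of Art1 with 28.8 ± 1.41 and Pla2g5 with 9.57 ± 0.762 RPKM (SD, n = 3). Control levels of those 3 and of the next, Ush1c at 3.78 ± 0.819 RPKM, did not overlap from one gene to the next in the order. Below them came Foxo6os at 2.75 ± 0.391, Pnpla3 at 2.47 ± 0.726, Cngb3 at 1.70 ± 0.311 and Hrasls at 1.44 ± 0.0387 RPKM in control hearts, and from Ush1c down to Hrasls each gene overlapped the next. Foxo6 at 0.993 ± 0.345 and Rp1 at 0.348 ± 0.0682 RPKM were the lowest, without overlap between them. In control hearts 4 of the 10 lay above the median of all genes tested, 3.31 RPKM. In mutant hearts the order was another: Pla2g5 was highest at 0.602 ± 0.0671 RPKM, followed by Art1 at 0.493 ± 0.168 and Lrtm1 at 0.288 ± 0.123 RPKM, with overlap between Pla2g5 and Art1 and between Art1 and Lrtm1. None of the 10 reached 1 RPKM on average in mutant hearts.

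Lrtm1 encodes a membrane protein with leucine-rich repeats. It lies at chr14:29018208-29033645 on the plus strand (mm10), within the body of Cacna2d3, which is read from the other strand, and the annotated exons of the pair share no base. Lrtm1 had 115, 129 and 53 counts in the 3 mutant hearts, against 13971, 19050 and 15140 counts in the 3 control hearts. That is 2.27, 2.54 and 0.976 CPM in mutant hearts and 356, 338 and 308 CPM in control hearts. With 334 ± 24.5 CPM, Lrtm1 was among the top 2.17% of the genes tested in control hearts, and its mean in mutant hearts was 1.93 ± 0.835 CPM. The pooled level was 175-fold lower in mutant hearts, with a 95% interval of 156 to 196 that covers counting error only. The lowest control heart stood 121-fold above the highest mutant heart, while mutant hearts differed among themselves by up to 2.60-fold. The fitted log2 fold change was -7.44 ± 0.25 (SE).

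The promoter of Lrtm1 is shown because no other of the 10 genes combines so high a control level with so large a difference. The 250 bases before the RefSeq start (GRCm38.p6, chr14:29017958-29018207, plus strand) hold neither AGGTCA nor GGGTCA on either strand, the 2 half-site spellings that were searched.
Lrtm1 promoter: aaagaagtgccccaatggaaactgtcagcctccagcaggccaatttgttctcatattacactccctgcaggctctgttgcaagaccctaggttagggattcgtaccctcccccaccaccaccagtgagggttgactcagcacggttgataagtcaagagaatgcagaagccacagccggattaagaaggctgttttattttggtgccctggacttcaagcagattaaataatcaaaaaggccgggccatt
In the promoters printed here, capitals mark a match to either half-site on either strand. Of 32817 RefSeq promoter windows of 250 bases, 14.0% hold AGGTCA and 11.6% hold GGGTCA. A direct repeat of AGGTCA with 4 bases in between was in 5 of these windows and in none of those of the 10 genes. Windows were found for 7 of the 10 genes, 9 windows in all, and 3 of the 7 genes had a half-site. The shares above are per window and per spelling, so that count of genes cannot be set against them. A match describes the letters and is not a measured binding site.

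Foxo6os is a noncoding RNA gene beside Foxo6, read from the opposite strand, and Foxo6 encodes a FoxO transcription factor best known from the brain. They lie next to each other on chromosome 4, Foxo6os at chr4:120291350-120303892 on the plus strand and Foxo6 at chr4:120267079-120287349 on the minus strand, 4.0 kb apart with no shared exon bases. Foxo6os had 2, 2 and 4 counts in mutant hearts, against 289, 436 and 289 counts in control hearts. Its mean was 0.0508 ± 0.0198 CPM in mutant hearts and 7.0 ± 0.986 CPM in control hearts. The pooled level was 136-fold lower in mutant hearts, with a 95% counting interval of 69.0 to 317. The wide interval reflects the handful of reads left in mutant hearts, where no heart reached 0.1 CPM.

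Foxo6 had 19, 8 and 16 counts in mutant hearts, against 76, 221 and 137 counts in control hearts, or 0.276 ± 0.110 CPM in mutant hearts and 2.88 ± 0.996 CPM in control hearts. The pooled level was 10.9-fold lower in mutant hearts, with a 95% counting interval of 7.93 to 15.2. Foxo6os was selected on its difference and Foxo6 for its place beside it, so nothing is read from the gap between their folds. Control hearts varied more for Foxo6 than for any other of the 10 genes, with a coefficient of variation of 34.5%, and the lowest control heart was 5.17-fold above the highest mutant heart. The fitted log2 fold changes were -7.02 ± 0.25 for Foxo6os and -3.39 ± 0.34 for Foxo6 (SE). Per length, control hearts held more Foxo6os, 2.75 RPKM, than Foxo6, 0.993 RPKM. In mutant hearts Foxo6os at 0.0244 RPKM was lower than Foxo6 at 0.115 RPKM.
Foxo6os promoter: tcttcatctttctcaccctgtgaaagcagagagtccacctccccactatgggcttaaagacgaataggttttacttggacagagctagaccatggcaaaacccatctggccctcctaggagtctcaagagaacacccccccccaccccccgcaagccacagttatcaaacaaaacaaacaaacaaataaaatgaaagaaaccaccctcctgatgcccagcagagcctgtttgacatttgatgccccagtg
This window (chr4:120290883-120291132, plus strand, GRCm38.p6) is shown as the promoter of the noncoding partner, and it holds no half-site. The start it precedes in RefSeq lies 217 bases before the start in GENCODE.

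Rp1, Cngb3 and Ush1c are known from sense organs, where they are studied for their part in inherited blindness and deafness. Rp1 encodes a microtubule-binding protein of the photoreceptor axoneme, and it spans 410 kb at chr1:3999557-4409241 on the minus strand. It had 6, 2 and 2 counts in mutant hearts, against 180, 324 and 193 counts in control hearts. The means were 0.0649 ± 0.0464 CPM in mutant hearts and 4.76 ± 0.924 CPM in control hearts. The pooled level was 75.0-fold lower in mutant hearts, with a 95% counting interval of 40.6 to 157. No mutant heart came within 33.2-fold of the lowest control heart. Merged over its annotated transcripts, Rp1 has 12311 exon bases, the most of the 10 genes. Per length, in deposited RPKM, it was the lowest of them in control hearts.

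Cngb3 encodes a subunit of the cyclic nucleotide-gated channel of cone photoreceptors, and lies at chr4:19280850-19510623 on the plus strand. It had 14, 7 and 8 counts in mutant hearts, against 355, 405 and 514 counts in control hearts. Its mean was 0.187 ± 0.0774 CPM in mutant hearts and 8.90 ± 1.64 CPM in control hearts. The pooled level was 47.3-fold lower in mutant hearts, with a 95% counting interval of 32.8 to 70.9. Heart 3 was the highest control heart and heart 1 the highest mutant heart, and the groups lay far apart.

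Ush1c encodes harmonin, a PDZ scaffold protein that ties the Usher proteins together in the hair bundles of the inner ear. It lies at chr7:46195350-46238503 on the minus strand. Ush1c had 31, 39 and 41 counts in mutant hearts, against 477, 1053 and 863 counts in control hearts. This gave 0.711 ± 0.0865 CPM in mutant hearts and 16.1 ± 3.49 CPM in control hearts. The pooled level was 23.2-fold lower in mutant hearts, with a 95% counting interval of 19.2 to 28.3. The 3 mutant hearts were close together, whereas control heart 1 was low among the control hearts at 12.2 CPM, against 18.7 CPM in control heart 2 and 17.6 CPM in control heart 3. An opposite-strand gene, Gm9860, shares 3.12% of its exon bases.
Ush1c promoter: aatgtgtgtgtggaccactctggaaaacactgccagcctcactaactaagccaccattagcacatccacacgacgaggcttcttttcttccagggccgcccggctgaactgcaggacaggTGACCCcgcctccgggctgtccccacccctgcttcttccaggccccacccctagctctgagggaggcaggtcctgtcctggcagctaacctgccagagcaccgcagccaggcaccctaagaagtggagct
The window (chr7:46238491-46238740, written along the minus strand, GRCm38.p6) is shown for its half-site, GGGTCA on the opposite strand of the gene, at 130 to 125 bases before the RefSeq start.

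Other genes of rods, cones and hair bundles were mostly too low to test in the heart. Of 26 photoreceptor genes 21 were listed and 7 were tested, of which 2 were lower (28.6% against 19.5% of all genes tested), 0 were higher and 5 did not pass the threshold. The 2 were Cnga3, the partner of Cngb3 in the cone channel, and Rom1, a membrane protein of photoreceptor discs. Cnga3 had 3, 7 and 11 counts in mutant hearts and 13, 31 and 27 counts in control hearts, with a log2 fold change of -1.83 ± 0.40 (SE, edgeR adjusted p = 0.00566). Rom1 averaged 2.63 ± 0.180 CPM in mutant hearts and 5.64 ± 0.958 CPM in control hearts, a log2 fold change of -1.10 ± 0.14 (SE, edgeR adjusted p = 2.70e-04). Of the defining rod genes, Nrl, Gnat1 and Pde6b were at or near 0, with 0 to 2 counts in any heart. The 8 rod markers, of which 6 were listed and Rom1 made up most of the sum, came to 3.07 to 3.55 CPM in mutant hearts and 5.51 to 7.50 CPM in control hearts.

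Among 10 genes of the Usher network other than Ush1c, 6 were tested, of which 2 were lower (33.3% against 19.5% of all genes tested) and 0 were higher. Whrn, which encodes the scaffold protein whirlin, a relative of harmonin, averaged 10.1 ± 0.555 CPM in mutant hearts and 27.4 ± 5.37 CPM in control hearts, a log2 fold change of -1.44 ± 0.13 (SE, edgeR adjusted p = 2.92e-05). Cdh23, a cadherin of the hair bundle tip link, had a log2 fold change of -0.31 with an edgeR adjusted p of 0.0498. Its call was lost in the 5 fits without mutant heart 1 or 2 or without any 1 of the control hearts, where the adjusted p reached 0.115, and the count of lower genes was then 1. The median log2 fold change of the 6 was -0.16. With limma on the deposited RPKM, as log2(RPKM + 0.1), a scale on which the median of all genes tested was 0.26, the median of the 6 was 0.00291.

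Pnpla3, Hrasls and Pla2g5 encode enzymes that act on lipids. Pnpla3 (adiponutrin) is a patatin-like lipase of lipid droplets, best known from liver, and lies at chr15:84167837-84187236 on the plus strand. It had 13, 10 and 23 counts in mutant hearts, against 382, 645 and 832 counts in control hearts. Its mean was 0.292 ± 0.117 CPM in mutant hearts and 12.7 ± 3.75 CPM in control hearts. The pooled level was 43.5-fold lower in mutant hearts, with a 95% counting interval of 32.5 to 59.6. Control hearts were spread from 9.74 to 16.9 CPM, and all were far above the highest mutant heart at 0.423 CPM. The same strand carries the gene model Gm49513, which shares 6.78% of the exon bases of Pnpla3.

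Hrasls, also called Plaat1, encodes a phospholipase and acyltransferase that moves acyl chains between phospholipids, at chr16:29209695-29230531 on the plus strand. It had 10, 7 and 15 counts in mutant hearts, against 206, 288 and 266 counts in control hearts. The CPM values were 0.197, 0.138 and 0.276 in mutant hearts and 5.25, 5.11 and 5.41 in control hearts. Control hearts were closer together than for any other of the 10 genes, with a coefficient of variation of 2.83%, against a median of 7.01% over 12572 genes with at least 1 CPM. The pooled level was 25.6-fold lower in mutant hearts, with a 95% counting interval of 18.0 to 37.7.

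Pla2g5 encodes a secreted phospholipase A2, an enzyme that frees fatty acids from phospholipids, at chr4:138799244-138863482 on the minus strand. It had 79, 73 and 95 counts in mutant hearts, against 1147, 1881 and 1438 counts in control hearts. Its mean was 1.58 ± 0.157 CPM in mutant hearts and 30.6 ± 2.39 CPM in control hearts. The pooled level was 19.5-fold lower in mutant hearts, with a 95% counting interval of 17.1 to 22.2. Of the 10 genes Pla2g5 varied least among mutant hearts, with a coefficient of variation of 9.96%, and it kept the most RNA per length there.
Pla2g5 promoter, window 2: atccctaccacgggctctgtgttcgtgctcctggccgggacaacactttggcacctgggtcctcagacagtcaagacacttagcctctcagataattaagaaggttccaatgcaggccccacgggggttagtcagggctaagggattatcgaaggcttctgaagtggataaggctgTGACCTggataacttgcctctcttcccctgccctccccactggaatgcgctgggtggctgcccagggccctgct
RefSeq gives Pla2g5 more than 1 start, and this window (chr4:138819258-138819507, written along the minus strand, GRCm38.p6) is shown because it holds AGGTCA, on the strand opposite to the gene, at 74 to 69 bases before its start. That start lies 44225 bases from the start in GENCODE, within the gene body. The window at the other start, 13 bases from the start in GENCODE, holds no half-site. The counts do not tell the starts apart.

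Art1 encodes a cell-surface enzyme that transfers ADP-ribose to arginines of other proteins and is best known from skeletal muscle. It lies at chr7:102101743-102113933 on the plus strand. Art1 had 59, 46 and 93 counts in mutant hearts, against 3603, 4772 and 4578 counts in control hearts. The CPM values were 1.16, 0.905 and 1.71 in mutant hearts, and 91.9, 84.7 and 93.1 in control hearts. This placed Art1 among the top 12.0% of the genes tested in control hearts. The pooled level was 70.4-fold lower in mutant hearts, with a 95% counting interval of 61.2 to 81.5. The fitted log2 fold change was -6.15 ± 0.16 (SE).
Art1 promoter: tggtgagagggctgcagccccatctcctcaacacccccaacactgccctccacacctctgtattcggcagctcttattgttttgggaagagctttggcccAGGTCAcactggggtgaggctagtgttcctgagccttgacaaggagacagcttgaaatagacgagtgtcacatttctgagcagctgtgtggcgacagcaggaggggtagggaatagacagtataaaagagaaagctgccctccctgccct
This window (chr7:102101493-102101742, plus strand, GRCm38.p6) holds AGGTCA on the strand of the gene at 150 to 145 bases before the start. It also holds TATAAA, a common core promoter sequence, at 30 to 25 bases before the start, a match found in 12.4% of all windows. Neither half-site was in the windows of Foxo6os, Pnpla3 or Hrasls.

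Chrna10, a nicotinic receptor gene read from the other strand, shares 36.5% of the exon bases of Art1, and the kit does not mark strand. Chrna10 had 28, 7 and 23 counts in mutant hearts and 25, 22 and 32 counts in control hearts, so its counts were below those of Art1 in every heart, and much further below them in the control hearts. Skeletal muscle markers, a tissue where Art1 is high, were followed too. The 14 markers, of which 12 were listed, summed to 11.3 to 23.3 CPM in mutant hearts and 17.2 to 27.3 CPM in control hearts, which overlap. Of the 6 tested, Tnni2 was lower, Myh8 was higher and 4 did not pass the threshold. Acta1 carried most of the sum, with 369 to 1279 counts in any heart, and Tnni2 had 31 to 129, Mylpf 27 to 59 and Tnnt3 24 to 43. Of the defining genes, Tnnc2 had 0 to 2 counts and Myog 0 to 1 in any heart, and Pvalb and Myod1 were not among the listed genes. The part of skeletal muscle RNA in the values of Art1 was not tested.

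Neighbours of the 10 genes were examined to see how far along the chromosome the difference reached. For each gene these were the nearest listed gene on each side and every gene whose body overlaps it, 22 genes in all besides the 10, of which 16 were tested. Of the 16, 5 were lower, which is 31.25% against 19.5% of all genes tested, 1 was higher and 10 did not pass the threshold. The median log2 fold change of the 16 was -0.28, beside -0.000546 for all genes tested. On deposited RPKM it was 0.01, beside 0.26 for all genes tested.

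Cacna2d3, which encodes an alpha2delta subunit of calcium channels and holds Lrtm1 within its body, was the neighbour with the largest change. It had 0, 0 and 2 counts in mutant hearts, against 29, 45 and 32 counts in control hearts. The ratio of summed counts was 57.1-fold lower in mutant hearts, with a 95% counting interval of 15.4 to 477, and the edgeR adjusted p was 4.62e-05. On one side of Lrtm1, 491 kb away, Wnt5a, a secreted Wnt ligand, fell to 4.88 ± 0.329 CPM in mutant hearts, against 14.0 ± 0.988 CPM in control hearts (log2 fold change -1.52 ± 0.10 SE, edgeR adjusted p = 3.23e-06). Selenok, 935 kb away on the other side, had a log2 fold change of -0.14 (edgeR adjusted p = 0.120). On deposited RPKM its value was 0.14, where the median of all genes tested was 0.26.

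Art5, a relative of Art1 whose body overlaps that of Art1 without sharing exon bases, fell to 1.80 ± 0.502 CPM in mutant hearts, against 8.89 ± 1.32 CPM in control hearts. This was 4.93-fold lower (edgeR adjusted p = 2.02e-05). Samm50, a gene of the mitochondrial outer membrane sorting machinery 5.0 kb from Pnpla3, fell to 145 ± 8.57 CPM in mutant hearts, against 239 ± 11.4 CPM in control hearts (log2 fold change -0.72 ± 0.07 SE, edgeR adjusted p = 3.63e-05). Mutant hearts were thus 43.5-fold lower for Pnpla3 and 1.65-fold lower for Samm50 beside it. Hivep3, 129 kb from Foxo6, fell to 3.17 ± 0.454 CPM in mutant hearts, against 5.02 ± 0.694 CPM in control hearts (edgeR adjusted p = 0.00600). On log2(RPKM + 0.1), where the median of all genes tested was 0.26, its limma adjusted p was 0.125.

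Nup98, a nuclear pore gene 5.46 kb from Art1's body, was the neighbour called higher, with 54.6 ± 0.543 CPM in mutant hearts and 47.2 ± 3.50 CPM in control hearts (edgeR adjusted p = 0.0350). That call was lost in the 5 fits without any 1 of the mutant hearts, without control heart 2 or without control heart 3, where the adjusted p reached 0.108. The remaining neighbours did not pass. Next to Foxo6os, Scmh1 had a log2 fold change of 0.06. Beside Rp1, Xkr4 had 0.01 and Sox17, an endothelial transcription factor, had -0.41 with an edgeR adjusted p of 0.0582, which became 0.0189 without control heart 2. Of 4 endothelial markers 3 were lower, beside 19.5% of all genes tested. These markers summed to 1003 to 1064 CPM in mutant hearts and 1149 to 1267 CPM in control hearts. Their part in the value of Sox17 was not tested. Beside Cngb3, Cpne3 at 8.63 kb had -0.03 and Mmp16 had 0.14. Mb21d2 beside Hrasls had 0.09. Abcc8, which encodes the sulfonylurea receptor of ATP-sensitive potassium channels, 15.3 kb from Ush1c, had 0.23 with an adjusted p of 0.0555, which became 0.00557 without mutant heart 1. Chrna10 and Xntrpc beside Art1 had -0.57 and -0.51, both with adjusted p of 0.321. The 6 not tested were Sult4a1, Atp13a5, Otog, Pla2g2d, Pla2g2e and Mir6392.

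**Figure D3:**
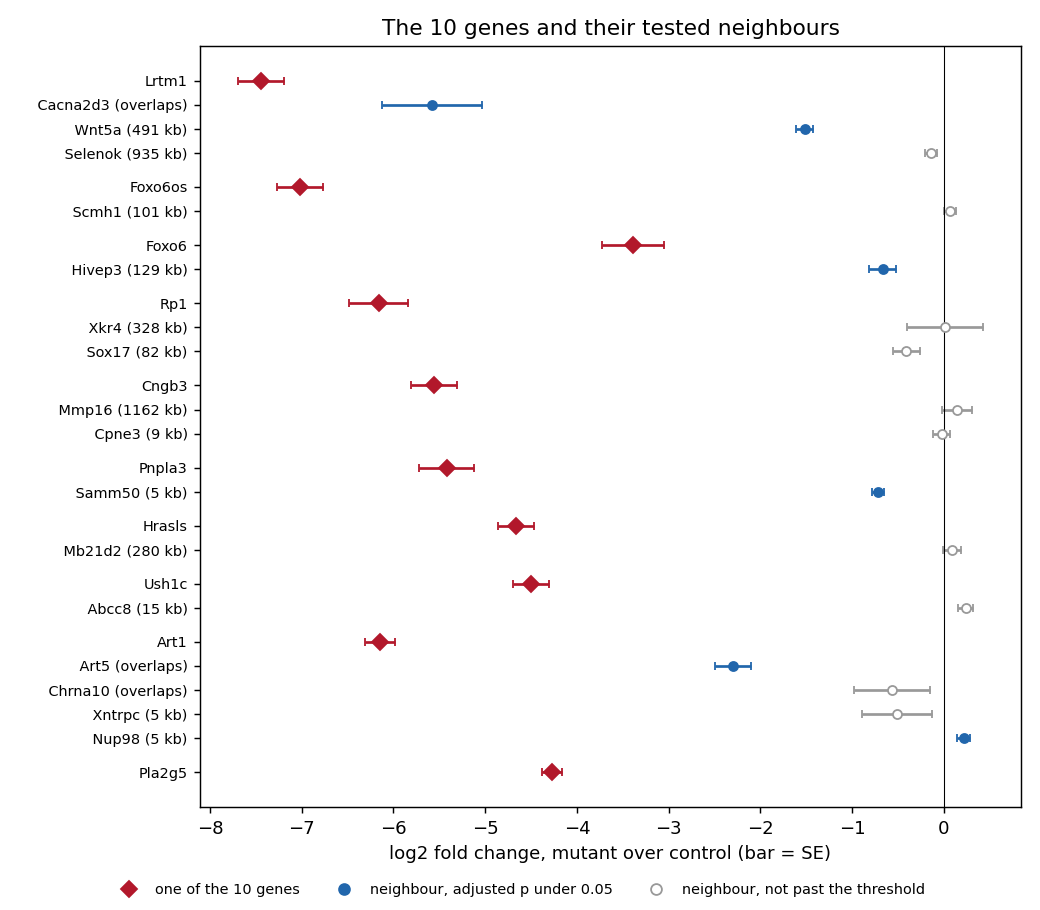
Fitted log2 fold change, mutant over control, with its SE, for each of the 10 genes (red diamonds, no test) and below each its tested neighbours with their distance; filled circles passed an adjusted p under 0.05 and open circles did not. Cacna2d3 at -5.58 is the neighbour farthest to the left, and Nup98 at 0.21 is the filled circle to the right of 0.

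Relatives of the 10 genes within their gene families were called in both directions. Of 37 relatives 32 were listed and 21 tested: 8 were lower (38.1% against 19.5% of all genes tested), 2 were higher (9.52% against 18.1%) and 11 did not pass the threshold. Their median log2 fold change was -0.06, and 0.18 on deposited RPKM, where the median of all genes tested was 0.26. None was 16-fold lower. Art3, a muscle relative of Art1, fell to 157 ± 9.71 CPM in mutant hearts, against 377 ± 22.4 CPM in control hearts, 2.40-fold lower (edgeR adjusted p = 1.87e-06). Pnpla2, the adipose triglyceride lipase and a relative of Pnpla3, fell to 174 ± 13 CPM in mutant hearts, against 418 ± 70.5 CPM in control hearts (log2 fold change -1.27 ± 0.12 SE, edgeR adjusted p = 3.25e-05). Art5 and Whrn, given above, complete the 4 with the smallest adjusted p.

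The other FoxO genes, chosen after their values were seen, differed little. Foxo1 had a log2 fold change of 0.07 and Foxo3 of 0.06, and neither passed the threshold (edgeR adjusted p = 0.428 and 0.640). Foxo4 had -0.24 (edgeR adjusted p = 0.0164), and its call was lost without control heart 2, with an adjusted p of 0.0711. On deposited RPKM Foxo4 was at 0.04, where the median of all genes tested was 0.26. Among relatives that were higher, Dcdc2a, which shares doublecortin domains with Rp1, had 17, 25 and 27 counts in mutant hearts and 2, 1 and 1 counts in control hearts (edgeR adjusted p = 1.65e-04). Pla2g16, a relative of Hrasls, was the other, at 121 ± 3.36 CPM in mutant hearts and 108 ± 1.94 CPM in control hearts (edgeR adjusted p = 0.0437), a call lost in the fit without any 1 of the 6 hearts, where the adjusted p reached 0.164.

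In the triglyceride and lipid droplet pathway, where Pnpla3 acts, 25 of 26 genes were listed and 24 tested, of which 14 were lower (58.3% against 19.5% of all genes tested), 3 were higher (12.5% against 18.1%) and 7 did not pass. Their median log2 fold change was -0.47. On deposited RPKM their median was -0.18, with 11 lower and 10 higher. There, the median of all 14877 genes tested was 0.26, with 1221 lower and 7391 higher. Dgat2, which makes triglyceride, fell to 69.1 ± 9.28 CPM in mutant hearts, against 249 ± 35.3 CPM in control hearts, 3.60-fold lower (edgeR adjusted p = 4.55e-06). Lpin1, the phosphatidate phosphatase one step before it, fell to 73.2 ± 8.05 CPM in mutant hearts, against 178 ± 6.0 CPM in control hearts (log2 fold change -1.28, edgeR adjusted p = 3.95e-06). The fat storage-inducing proteins Fitm2 and Fitm1, which help lipid droplets to form, had log2 fold changes of -1.54 and -1.09 (edgeR adjusted p = 4.10e-06 and 5.93e-06). The higher genes were Cideb (log2 fold change 1.38), Srebf1 (0.29) and Lpin2 (0.22). The call of Srebf1 was lost without mutant heart 3 or control heart 3 and that of Lpin2 without any 1 of the 6 hearts, with adjusted p up to 0.0718 and 0.167, and without mutant heart 3 only 1 gene was called higher.

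Genes of phospholipid remodelling and eicosanoid synthesis, the setting of Hrasls and Pla2g5, were called in both directions. Of 22 genes 20 were tested, of which 7 were lower (35% against 19.5% of all genes tested), 2 were higher (10% against 18.1%) and 11 did not pass. The median log2 fold change was -0.22. On deposited RPKM the median was 0.06, with 1 gene lower and 6 higher. Over all 14877 genes tested on that scale the median was 0.26, with 1221 lower and 7391 higher. Napepld, which makes acylethanolamides from the phospholipid products of acyltransferases, was higher, with 10.9 ± 0.856 CPM in mutant hearts and 6.33 ± 0.113 CPM in control hearts (log2 fold change 0.79 ± 0.09 SE, edgeR adjusted p = 1.34e-04). Pla2g4a, the cytosolic phospholipase A2, was also higher, at 5.09 ± 0.567 CPM in mutant hearts and 3.06 ± 0.269 CPM in control hearts (edgeR adjusted p = 0.00141). Alox5, the 5-lipoxygenase, was lower, at 3.22 ± 0.240 CPM in mutant hearts and 5.63 ± 0.585 CPM in control hearts (edgeR adjusted p = 6.25e-04). For Ptges2, a prostaglandin E synthase, the log2 fold change was -0.43 (edgeR adjusted p = 0.00346), which was -0.14 with an adjusted p of 0.202 on log2(RPKM + 0.1). The count of lower genes was 3 without mutant heart 2 and 4 without control heart 1 or control heart 3, and the count of higher genes was 5 without control heart 3.

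Alox5 is also made by macrophages. The 4 macrophage markers summed to 38.6 to 41.0 CPM in mutant hearts and 56.7 to 64.3 CPM in control hearts. Of the 4, 3 were lower, beside 19.5% of all genes tested. The part of these markers in the value of Alox5 was not tested.

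Of 9 genes that handle ADP-ribose, where Art1 acts, 2 were lower (22.2%, near the 19.5% of all genes tested), 0 were higher and 7 did not pass. Their median log2 fold change was -0.02. On deposited RPKM it was 0.26, as was the median of all genes tested. There, 4 of the 9 were higher, beside 7391 of all 14877 genes tested. The 2 lower on counts were Itga7, the integrin subunit that ART1 is known to modify in muscle cells, and Macrod1, a hydrolase that removes ADP-ribose. Itga7 fell to 95 ± 8.52 CPM in mutant hearts, against 182 ± 14.0 CPM in control hearts (log2 fold change -0.94 ± 0.08 SE, edgeR adjusted p = 2.92e-05). Macrod1 fell to 61.3 ± 3.45 CPM in mutant hearts, against 112 ± 11.4 CPM in control hearts (log2 fold change -0.87 ± 0.08 SE, edgeR adjusted p = 4.51e-05). All 3 tested alpha2delta genes were lower, beside 19.5% of all genes tested. They include Cacna2d3, the neighbour given above around which the list was drawn, so nothing is read from that count. Cacna2d1, the main one in heart, fell to 154 ± 17.3 CPM in mutant hearts, against 231 ± 17.1 CPM in control hearts (edgeR adjusted p = 7.53e-04). Cacna2d2 had a log2 fold change of -0.73 (edgeR adjusted p = 0.0379), a call lost with DESeq2 (adjusted p = 0.0580) and in 5 of the 6 fits with a heart left out, those without mutant heart 1 or 2 or without any 1 of the control hearts, where the adjusted p reached 0.131.

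**Figure D4:**
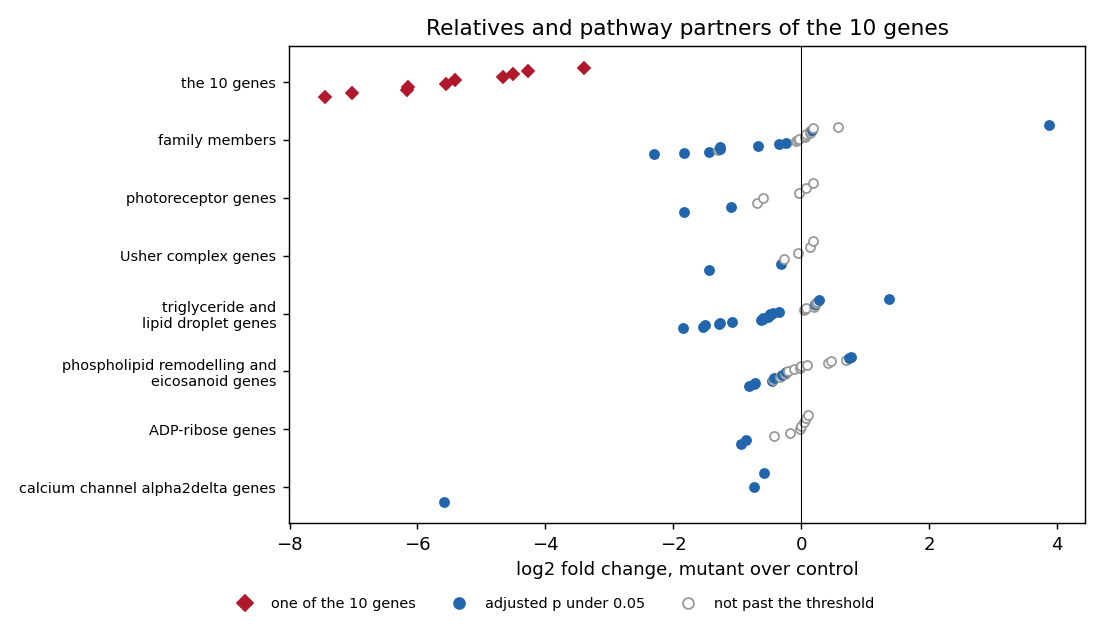
Fitted log2 fold change, mutant over control, of the 10 genes (red diamonds, no test) and of the tested genes of 7 lists of relatives and pathway partners, 1 row a list; filled circles passed an adjusted p under 0.05 and open circles did not. Apart from Cacna2d3 at -5.58, no listed gene reaches the range of the 10 genes, and Dcdc2a at 3.88 is the point farthest to the right.

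The 10 genes varied among hearts of 1 group in ways of their own. In mutant hearts the coefficient of variation ran from 9.96% for Pla2g5 to 71.5% for Rp1, whose mutant counts were 10 in all. Mutant heart 2 was lowest for 7 of the 10 genes. In control hearts, heart 2 was highest for 5 genes, heart 3 for 4 and heart 1 for 1. Leaving out any 1 heart kept the fitted log2 fold change between -7.70 and -7.12 for Lrtm1, between -6.88 and -5.88 for Rp1 and between -3.66 and -3.10 for Foxo6.

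The gene whose profile over the 6 hearts lay closest to each of the 10 was sought among the other tested genes with a name. Genes named as models or clones, such as 2210407C18Rik, and microRNA genes were left out, as were the 10 themselves. The measure was Euclidean distance between log2 CPM values, with 0.5 counts added and each gene set against its control mean. With the 10 left out of the search, the closest pair was Pla2g5 and Tuba8, an alpha tubulin, at a distance of 0.429. Tuba8 averaged 5.52 CPM in mutant hearts and 91.1 CPM in control hearts. Foxo6 lay closest to Cpn2, at 0.624. Of the genes searched, Scn4a, the sodium channel of skeletal muscle, was nearest to Ush1c (0.703), Hrasls (0.986) and Pnpla3 (1.34). Prss55 was closest to Foxo6os, Art1, Rp1 and Lrtm1, and Prss51 to Cngb3. Both have 0 counts in mutant hearts, so those distances depend on the count added.

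Markers of the other cell types a whole heart can hold were summed per heart. Their calls stand beside 18.1% higher and 19.5% lower among all genes tested. Fibroblast markers came to 1397 to 1512 CPM in mutant hearts and 1189 to 1258 CPM in control hearts, with 3 of 5 higher. Smooth muscle and pericyte markers came to 1408 to 1524 CPM in mutant hearts and 1544 to 1685 CPM in control hearts, with 1 of 4 lower and 1 higher. Atrial markers came to 299 to 357 CPM in mutant hearts and 51.4 to 61.3 CPM in control hearts, and all 3 tested, Nppa, Myl4 and Bmp10, were higher. In that list Nppa, a natriuretic peptide gene, made up most of the sum, with at least 2312 counts in every heart. The atrial genes Myl7 and Sln had at most 22 and 8 counts in any heart. Glia and neuron markers came to 12.0 to 16.8 CPM in mutant hearts and 12.4 to 13.2 CPM in control hearts, with none of the 2 tested called. Of the 4 liver markers only Ttr and Apoa1 were listed, and they came to 1.34 to 1.82 CPM in mutant hearts and 0.281 to 0.391 CPM in control hearts. Ttr, the 1 tested, was higher and made up most of that sum, while Apoa1 had 0 to 8 counts in any heart. What part these shifts have in the values of the 10 genes was not tested.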

How the data were processed

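RNA of 6 whole hearts, 3 mutant and 3 control, was sequenced. Per the labels' protocols, libraries from Trizol-extracted RNA were built with the TruSeq RNA kit v2, which does not mark strand. The submitters' processing notes name cutadapt 1.9, STAR 2.5.2b, featureCounts 1.5.1 and mm10 with no role or order; the sources used here do not give the annotation release, the strand setting or the handling of reads with several placements. The authors deposited whole-number counts per Ensembl gene and RPKM values, 1 file of each per heart. Depth was 43314706 to 62095277 counts per library.

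Groups and replicate numbers came from the sample titles. Names and coordinates came from GENCODE M21, of the same build, which matched 20081 identifiers and left 40 unnamed. The count test was that of edgeR 4.0.16, run in R 4.3.3 (filterByExpr, which removed 5244 genes; TMM; group as the only term; quasi-likelihood test), with Benjamini-Hochberg adjustment over all 14877 genes and a threshold of 0.05. CPM uses TMM-scaled library sizes. Folds and percentages of the 10 genes are ratios of pooled levels, the summed counts of a group over its summed TMM-scaled library sizes. Their exact 95% intervals come from counts summed over the hearts of a group, so they leave out the spread among hearts. These intervals cover counting error only, with each read taken as a separate molecule, since reads carry no molecular identifiers. The SE of a fitted change was approximated as its size over the root of its F statistic. The scripts were tested on simulated counts.

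Alternatives were RLE size factors, DESeq2 1.42.0, no filter, limma 3.58.1 on log2(RPKM + 0.1) and log2(RPKM + 1), a replicate block, and leaving out each heart. Named genes were the 10 genes, their tested neighbours, Thra and up to 4 called genes per list with the smallest adjusted p (or, with none called, the 2 with the highest CPM). Also named was the gene with the nearest profile to each of the 10, leaving out the 10, gene models, clones and microRNA genes. Others were named after their values were seen. Some items are not reported here. The members and lists were chosen with earlier results of these data known. Promoter windows came from RefSeq (GRCm38.p6), of which the 250 bases before each start were used. Motifs were searched on both strands; the direct repeat overlaps the matches to AGGTCA. The letters CTA and TAG with 4 bases in between, a core bound by MEF2 factors, were in 3.20% of all windows and in none of those of the 10 genes.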

Additional observations from a re-analysis of the deposited data

How the results depend on the processing

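Every fitted log2 fold change of the 10 genes kept its negative sign under all alternatives run. Most of the genes were chosen for large differences in these same counts, so the kept sign is a description only. The size of the fitted change depended on the added value: on log2(RPKM + 1) it was -5.03 for Lrtm1, -0.82 for Foxo6 and -0.42 for Rp1. There, 1 RPKM exceeds the mean of each of the 10 genes in mutant hearts. RPKM holds no correction for library composition, and on log2(RPKM + 0.1) and log2(RPKM + 1) the median of all genes tested moved to 0.26 and 0.17. On these scales, 7391 and 7349 genes were higher and 1221 and 1215 lower, against 2688 higher and 2898 lower on counts. On both, higher calls numbered 5 neighbours, 8 relatives, 1 Usher gene, 10 triglyceride genes, 6 phospholipid genes and 4 ADP-ribose genes, and lower calls 4 neighbours, 6 relatives, 2 photoreceptor genes, 1 Usher gene, 11 triglyceride genes, 1 phospholipid gene, 2 ADP-ribose genes and 2 alpha2delta genes. Lower Usher genes numbered 1 with RLE size factors and 1 without a filter, and higher neighbours 2 with DESeq2.

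Same-numbered hearts of the groups were not clearly paired, with correlations of their deviations at -0.05 to 0.15. Mutant hearts 1 and 3 were closest to the control heart of their own number, and mutant heart 2 was not. With a replicate block 3090 genes were higher and 3229 lower, against 2688 and 2898 without it, and 2 neighbours were higher.

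Leaving out each heart in turn gave 2039 to 2661 higher and 2234 to 2856 lower genes. Counts then ranged from 0 to 1 for higher neighbours, 1 to 2 for higher relatives, 1 to 3 for lower Usher genes, 1 to 3 for higher triglyceride genes, 2 to 5 for higher and 3 to 6 for lower phospholipid genes. Signs turned for 4 neighbours that had not passed. Selenok was at 0.14 and 0.13 on the 2 RPKM scales. Cpne3 was at 0.25 and 0.23 there (limma adjusted p = 0.0367 and 0.0400), at 0.03 without mutant heart 3 and at 0.0414 without control heart 1. Xkr4 was at -0.29 without mutant heart 1, -0.01 without control heart 1 and -0.30 without control heart 3, and Mmp16 at -0.0153 without control heart 3. Over the 6 fits with a heart left out, Xkr4 ran from -0.30 to 0.47, Mmp16 from -0.0153 to 0.24 and Cpne3 from -0.11 to 0.0414. For all of these the cause was not tested beyond the shift of the median given above. At 1 to 3 counts in a heart, as for Foxo6os, Rp1 and Cacna2d3 in mutant hearts, the depth sets how small a remaining level can be told from another.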
